A study of Neurospora crassa OR74A with 13 samples.

Results

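The 10 genes described here are listed as the glycolysis genes in the filamentous fungus Neurospora crassa, from the hexose kinases that start the pathway to the pyruvate kinase that ends it. They were listed by identifier and not by a rule on measured values, but with earlier results of these data known. They are 10 of 9733 genes measured in all, and their messenger RNA was followed across 13 libraries. 8 of the 10 carry a symbol in the reference gene table: emp-1 (NCU02542, hexokinase), gpi-1 (NCU07281, glucose-6-phosphate isomerase), emp-3 (NCU00629, phosphofructokinase), fba (NCU07807, fructose-bisphosphate aldolase), gpd-1 (NCU01528, glyceraldehyde-3-phosphate dehydrogenase), pgk (NCU07914, phosphoglycerate kinase), emp-7 (NCU10042, enolase) and ace-8 (NCU06075, pyruvate kinase). The other 2, NCU00575 and NCU07550, have no symbol there and are called by their identifiers. NCU00575 stands beside emp-1 at the hexose kinase end of the list, and NCU07550 stands between fba and gpd-1. All 10 were detected in every library and passed the filter on low values.

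Glycolysis splits a hexose into a pair of pyruvate molecules and yields ATP and NADH on the way. Hexokinase traps glucose as its phosphate, phosphofructokinase commits the sugar to breakdown, aldolase cleaves it, and the enzymes from glyceraldehyde-3-phosphate dehydrogenase to pyruvate kinase recover the energy. Most steps run in either direction, but those of hexokinase, phosphofructokinase and pyruvate kinase do not, and gluconeogenesis passes around them with other enzymes. A cellulose-grown fungus obtains its hexose by secreting cellulases that release cellobiose, a glucose dimer, which beta-glucosidases cleave to glucose.

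Conidia were inoculated at 1000000 per mL, the mycelia grew on sucrose for 16 h, and RNA was taken 4 h after a shift to a new medium. RNA came from whole mycelium, so fewer cells of a kind and less RNA per cell cannot be told apart. Strain TBGK carries deletions of the 3 beta-glucosidase genes gh3-4 (NCU04952), gh1-1 (NCU00130) and gh3-3 (NCU08755), and the wild type (WT) is reference strain FGSC 2489. TBGK was measured on Avicel (a crystalline cellulose), on cellobiose and on sucrose with 1 library each, and WT on cellobiose with 1 library. WT on Avicel, WT with no carbon source and WT on sucrose had 3 libraries each, which the labels call biological triplicates and also list under an earlier deposit. The labels name no date or batch and mark only these 9 libraries in that way, so in each comparison of a single library with a triplicate group, any effect of when they were made cannot be told apart from strain or medium.

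Values are FPKM as deposited, fragment counts divided by the length of the transcript and by a size of the library. Levels are thus per length and can be set beside each other between genes of a library. How that size was counted is not given in the sources used here. The FPKM of all genes summed to between 3.56e+06 (WT no carbon replicate 1) and 7.10e+06 (WT sucrose replicate 2), so levels between libraries depend on the scaling. In TBGK the deleted genes read 9.21 FPKM (gh1-1), 0 (gh3-3) and 3.23 (gh3-4) on Avicel, at most 7.47 FPKM on cellobiose and at most 1.80 FPKM on sucrose. Replicate 1 of WT Avicel and replicate 1 of WT sucrose were the shallowest triplicate libraries, with 471.6 and 480.1 aligned megabases, against 1942.1 to 5640.4 in the other 7. Results that rest on these 2 libraries are also given without them. How deeply the 4 single libraries were sequenced is unknown. 3 of the 10 genes overlap a neighbour, and whether the counting used strand is not given in the sources used here. NCU07550 overlaps NCU07549 by 281 bases, and this neighbour stood at 7.65% to 18.5% of its FPKM. pgk overlaps NCU07913 by 21 bases, and this neighbour stood at 4.58% (WT sucrose replicate 1) to 25.45% (WT no carbon replicate 2) of its FPKM. ace-8 overlaps NCU06074 by 24 bases, and this neighbour stood at 0.107% to 2.44% of its FPKM.

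gpd-1 was the highest of the 10 in 13 of 13 libraries and ranked 3 to 44 among all genes. It held 30.7% to 62.9% of their summed FPKM. emp-7 took place 2 or 3 in each library and fba place 2 to 4, while emp-3 was the lowest in 8 libraries. As a share of all FPKM in a library, the 10 genes made up 1.95% in TBGK Avicel, 1.56%, 0.889% and 0.760% in WT Avicel, 1.51% in TBGK cellobiose, 2.59% in WT cellobiose, 0.933%, 1.003% and 1.09% in WT no carbon, 2.21% in TBGK sucrose and 3.15%, 1.63% and 1.59% in WT sucrose. The share was highest in WT sucrose replicate 1 and lowest in WT Avicel replicate 3. Every WT Avicel and no carbon share lay below every WT sucrose share, with Avicel replicate 1 just below sucrose replicate 3.

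**Figure D1:**
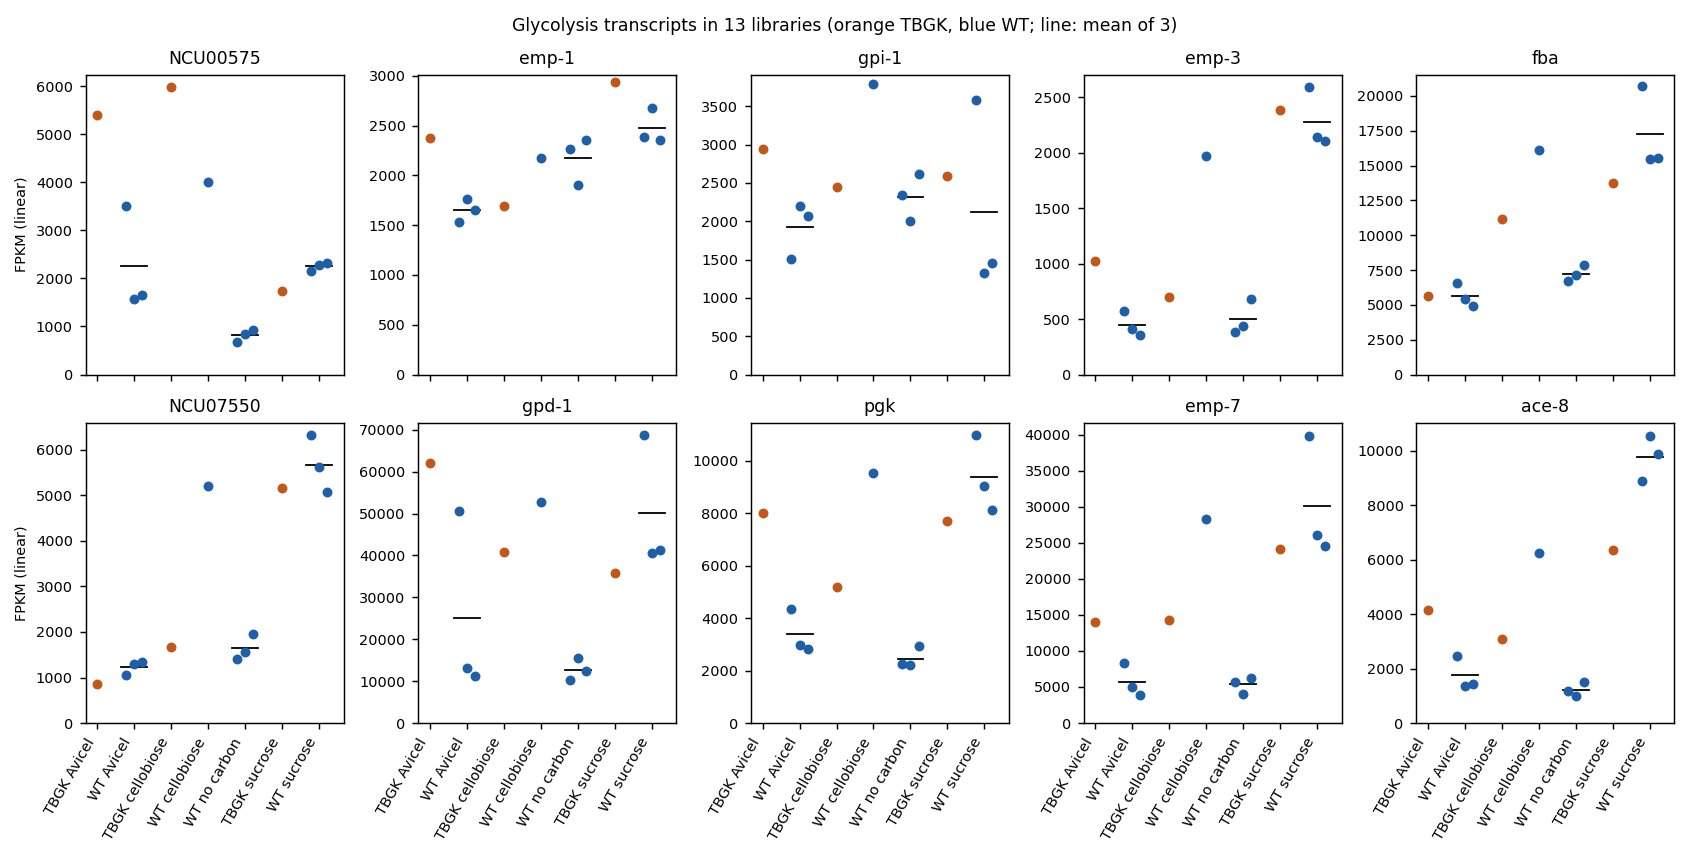
Level of each glycolysis gene in every library, in FPKM. Each point is 1 library, colours mark the strain, and gpd-1 is the highest gene in all 13 libraries.

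WT Avicel was set against WT sucrose to ask how the pathway responds when cellulose replaces a readily used sugar. 7 of the 10 genes fell and none rose, at a limma adjusted p under 0.05 over the 8759 genes tested, of which 24.5% fell and 33.9% rose. The median log2 difference of the 10 was -1.55, against 0.26 for all genes. With no carbon against sucrose 8 fell and none rose, where 24.1% of all genes fell and 40.2% rose, and the medians were -1.87 and 0.39. On Avicel 7 of the 10 lay below every sucrose library in each Avicel library, against 27.7% of all genes, and they were the same 7 that fell. With no carbon 9 of the 10, all but gpi-1, lay below every sucrose library, against 26.9% of all genes. Both comparisons share the sucrose libraries, so they are not separate evidence. The genes that fell in both were emp-3, fba, NCU07550, pgk, emp-7 and ace-8.

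The size, some calls and some directions depend on the scaling. The median of all genes moved to 0.63 (Avicel against sucrose) and 0.998 (no carbon against sucrose) when FPKM was rescaled to the same sum in every library. Measured against the median of all genes, the 10 genes lay at -1.81 and -2.25 as deposited, at -1.63 and -2.03 after that rescaling, and at -0.49 and -0.72 under quantile normalization, which left 3 and 5 calls, all falls. Rescaling to equal sums left 6 falls on Avicel, and 5 falls and 1 rise (emp-1, 0.64, limma adjusted p = 0.0366) with no carbon, both against sucrose. Over all genes 2965 rose and 2145 fell on Avicel against sucrose as deposited, 3891 and 1297 after rescaling and 2210 and 2354 under quantile normalization. With no carbon against sucrose 3522 rose and 2111 fell as deposited, 5215 and 1103 after rescaling and 2551 and 2403 under quantile normalization. Conidiation markers moved with the same contrasts. Of 4 measured (con-6, con-10, eas and fl), 4 rose in both, and their summed FPKM was 18604 to 36918 in WT Avicel, 73166 to 209411 in WT no carbon and 90.6 to 437 in WT sucrose, where con-10 was at 0 in 2 libraries and con-6 in 1. Their part in the result was not tested.

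At the head of the pathway each of NCU00575 and emp-1 passed the test in 1 of the 2 sucrose comparisons, and gpi-1 in none. NCU00575 (contig supercont10.1, 7953806 to 7956676 in the coordinates of the deposited files) had 3513, 1579 and 1655 FPKM in WT Avicel, 674, 851 and 934 FPKM in WT no carbon and 2152, 2274 and 2327 FPKM in WT sucrose. The no carbon libraries all lay below the others, while Avicel and sucrose overlapped through Avicel replicate 1. The gene fell with no carbon against sucrose by 1.47 on the log2 scale (SE 0.30, limma adjusted p = 0.00252), a level 2.77-fold lower. With equal sums that call was lost (-0.64, limma adjusted p = 0.0525). On Avicel against sucrose its difference was -0.10 (SE 0.30, limma adjusted p = 0.79). Without the 2 shallowest libraries it fell by 0.51 (limma adjusted p = 0.0339).

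emp-1, the hexokinase gene (supercont10.1, 2674892 to 2678353), kept close levels, with 1537, 1766 and 1656 FPKM in WT Avicel, 2269.9, 1904 and 2352 FPKM in WT no carbon and 2389, 2682 and 2359.7 FPKM in WT sucrose. It fell on Avicel against sucrose, with a log2 difference of -0.58 (SE 0.16, limma adjusted p = 0.0117), and every Avicel library lay below every sucrose library. The call was lost when FPKM was rescaled to equal sums, with -0.03 (limma adjusted p = 0.929), and under quantile normalization. Against sucrose, no carbon differed by -0.19 (SE 0.16, limma adjusted p = 0.313), although its libraries also lay below all sucrose libraries.

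gpi-1 (supercont10.4, 4532738 to 4534950), whose enzyme interconverts glucose and fructose phosphates, had 1505, 2194 and 2066 FPKM in WT Avicel, 2343, 2000.0 and 2609 FPKM in WT no carbon and 3581, 1330.2 and 1460.4 FPKM in WT sucrose. The spread was widest within sucrose, where replicate 1 stood far above replicates 2 and 3. No difference passed the test: Avicel against sucrose was -0.01 (95% interval -0.84 to 0.82) and no carbon against sucrose 0.27 (95% interval -0.56 to 1.10). With the 2 shallowest libraries left out, gpi-1 rose by 0.61 on Avicel (limma adjusted p = 0.0126) and by 0.72 with no carbon (limma adjusted p = 0.00355), both against sucrose.

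The committed step and the aldolase step fell together. emp-3, the phosphofructokinase gene (supercont10.1, 7764905 to 7768116), had 575, 409.8 and 356 FPKM in WT Avicel, 387, 433 and 681 FPKM in WT no carbon and 2592, 2139 and 2106 FPKM in WT sucrose. The highest of the 6 libraries off sucrose, at 681 FPKM, lay far below the lowest on sucrose, at 2106 FPKM. The mean was 447 ± 114 FPKM on Avicel, 501 ± 158 with no carbon and 2279 ± 271 on sucrose (SD, n = 3 each). That is 5.17-fold lower on Avicel than on sucrose, with a log2 difference of -2.37 (SE 0.25, limma adjusted p = 7.14e-05). With no carbon it was 4.67-fold lower, with a log2 difference of -2.22 (SE 0.25, limma adjusted p = 9.53e-05).

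fba, the aldolase gene (supercont10.5, 220500 to 222516), had 6572, 5405 and 4923 FPKM in WT Avicel, 6740.2, 7114 and 7836 FPKM in WT no carbon and 20746, 15440.1 and 15579 FPKM in WT sucrose, and neither Avicel nor no carbon overlapped sucrose. Its log2 difference from sucrose was -1.61 (SE 0.25, limma adjusted p = 0.000533) on Avicel and -1.24 (SE 0.25, limma adjusted p = 0.00216) with no carbon. The no carbon call was lost for fba under rescaling to equal sums (-0.41, limma adjusted p = 0.248). Under quantile normalization the Avicel call was lost (-0.30, limma adjusted p = 0.566) and the no carbon difference changed sign, to 0.71 (limma adjusted p = 0.174). NCU07550 (supercont10.3, 4405142 to 4406835) had 1064, 1296 and 1333 FPKM in WT Avicel, 1399, 1571 and 1946 FPKM in WT no carbon and 6314, 5620.4 and 5071 FPKM in WT sucrose. Its replicates were close within each group, and its log2 difference from sucrose was -2.20 (SE 0.19, limma adjusted p = 1.99e-05) on Avicel and -1.80 (SE 0.19, limma adjusted p = 5.95e-05) with no carbon.

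In the energy-yielding steps 3 genes fell in both comparisons and gpd-1 in 1. ace-8, the pyruvate kinase gene (supercont10.7, 2358335 to 2361288), had 2452, 1367 and 1431 FPKM in WT Avicel, 1169, 1005 and 1517 FPKM in WT no carbon and 8873, 10532 and 9859.5 FPKM in WT sucrose. Its highest library off sucrose stood at 2452 FPKM and its lowest on sucrose at 8873 FPKM. The level was 5.77-fold lower on Avicel, with a log2 difference of -2.53 (SE 0.27, limma adjusted p = 6.13e-05), and 8.02-fold lower with no carbon, with -3.004 (SE 0.27, limma adjusted p = 2.14e-05). emp-7, the enolase gene (supercont10.1, 5945430 to 5947804), had 8298, 4949.7 and 3836 FPKM in WT Avicel, 5759.7, 4053 and 6271 FPKM in WT no carbon and 39793, 26032 and 24519.6 FPKM in WT sucrose. Its log2 difference from sucrose was -2.44 (SE 0.37, limma adjusted p = 0.000474) on Avicel and -2.48 (SE 0.37, limma adjusted p = 0.000405) with no carbon. Under quantile normalization both calls were lost, at -1.16 (limma adjusted p = 0.15) on Avicel and -0.57 (limma adjusted p = 0.457) with no carbon.

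pgk (supercont10.4, 1370603 to 1372480), whose enzyme makes ATP at the first substrate-level step, had 4333, 2969 and 2841 FPKM in WT Avicel, 2246, 2207 and 2924 FPKM in WT no carbon and 10999, 9020.3 and 8142 FPKM in WT sucrose. Its log2 difference from sucrose was -1.49 (SE 0.24, limma adjusted p = 0.000759) on Avicel and -1.93 (SE 0.24, limma adjusted p = 0.00016) with no carbon, and neither group overlapped sucrose. The Avicel call was lost under quantile normalization (-0.53, limma adjusted p = 0.11). gpd-1 (supercont10.2, 3180356 to 3182245), also known as the clock-controlled gene ccg-7, had 50685, 13037 and 11219.8 FPKM in WT Avicel, 10172, 15511 and 12450.0 FPKM in WT no carbon and 68658, 40638 and 41292 FPKM in WT sucrose. Avicel replicate 1 stood inside the sucrose range and the other 2 Avicel libraries inside that of no carbon. Against sucrose gpd-1 differed by -1.32 (SE 0.60, limma adjusted p = 0.0859) on Avicel, and it fell by 1.96 with no carbon (SE 0.60, limma adjusted p = 0.0181). Without Avicel replicate 1 the Avicel difference was -2.01 (limma adjusted p = 0.00216). The no carbon call was lost without no carbon replicate 1 (limma adjusted p = 0.0594) or replicate 3 (0.0541) and with no filter (0.0744). It was also lost with equal sums (-1.13, limma adjusted p = 0.0851) and under quantile normalization (-0.26, limma adjusted p = 0.781).

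**Figure D2:**
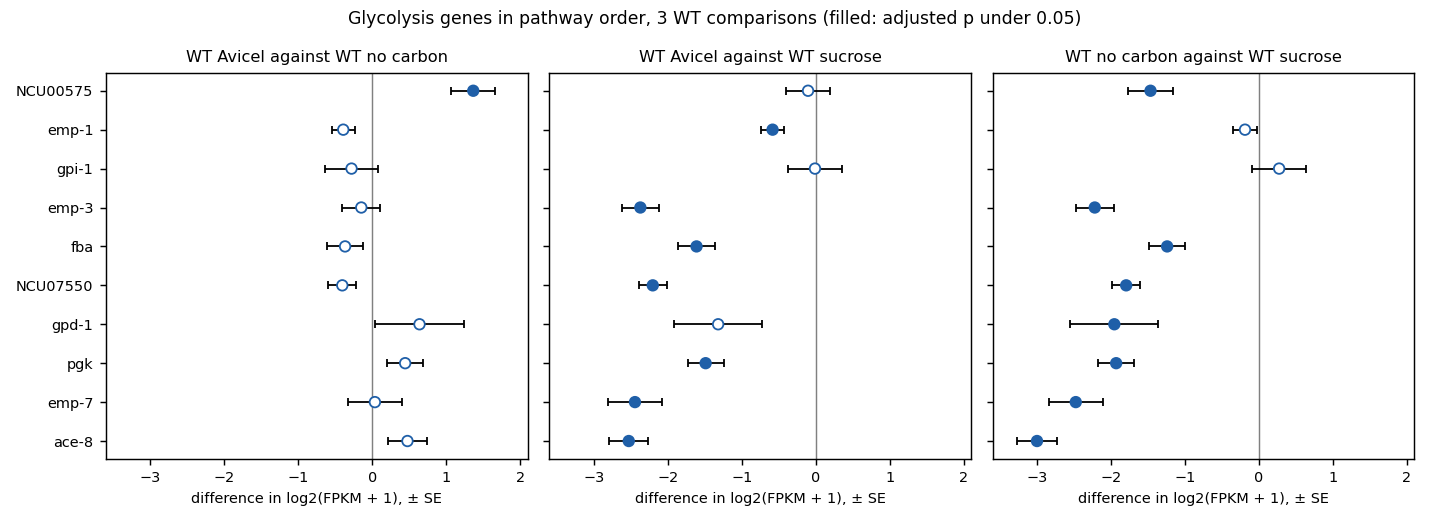
Log2 difference of each glycolysis gene in the 3 WT comparisons, from limma on log2(FPKM + 1), with its standard error as the bar. Against sucrose, emp-3, NCU07550, emp-7 and ace-8 lie furthest below 0 on Avicel, ace-8, emp-7 and emp-3 lie furthest below 0 with no carbon, and gpi-1 passes the test in neither, while between Avicel and no carbon only NCU00575 passes the test.

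WT Avicel against WT no carbon asked whether cellulose itself changed the pathway beyond the loss of sucrose. 1 of the 10 genes rose, NCU00575, and none fell, where 3.9% of all genes rose and 1.72% fell. Over all genes 342 rose and 151 fell as deposited, and 236 rose and 296 fell after rescaling to equal sums. NCU00575 was 2.58-fold higher on Avicel, with a log2 difference of 1.37 (SE 0.30, limma adjusted p = 0.0343), and every Avicel library lay above every no carbon library, as for 10.7% of all genes. Its limma adjusted p was 0.0562 with no filter on low values, and the call was also lost when any one of 6 of the 9 libraries was left out (0.0550 to 0.127). The other 9 differences ran from -0.41 (NCU07550) to 0.64 (gpd-1), and emp-1, fba and NCU07550 lay below no carbon in every Avicel library without passing the test, a position that 20.8% of all genes took. Replicate 1 of WT Avicel was above replicates 2 and 3 for 7 of the 10 genes, against 34.4% of all genes.

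WT cellobiose had a single library, so its differences stand without a test. Against no carbon 8 of 10 genes were at least 2-fold higher on cellobiose and none 2-fold lower, where 15.8% of all genes were higher and 26% lower, led by emp-7 (2.42 log2), ace-8 (2.36) and NCU00575 (2.30). emp-1 (0.01) and gpi-1 (0.72) were not. 9 of the 10 lay above all 3 no carbon libraries, as did 33.2% of all genes. The median difference of the 10 was 1.99, against -0.21 for all genes. Limma over all 13 libraries has to assume that single ones vary like the triplicates. The share of all genes it called here is not given, so its count is left out. Against sucrose none passed 2-fold in either direction, where 29.1% of all genes did. NCU00575 (4007 FPKM on cellobiose) and gpi-1 (3790.2 FPKM) lay above all 3 sucrose libraries, ace-8 (6243 FPKM), emp-3 (1973 FPKM) and emp-1 (2179 FPKM) below all 3, and the other 5 within their range, where 31.3% of all genes lay. Cellobiose gave 52699.6 FPKM of gpd-1, 28242 of emp-7, 16147 of fba, 9545 of pgk and 5200.4 of NCU07550.

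In TBGK on Avicel 6 of 10 genes were at least 2-fold higher than in WT on Avicel, against 14.6% of all genes, and none was 2-fold lower, against 10.4%. The count was 3 with equal sums and 1 under quantile normalization, and the shares of all genes in those settings are not given here. Measured against the median of all genes, the 10 lay at 1.34 as deposited, 1.29 with equal sums and 1.005 under quantile normalization. TBGK had 1 library here, so these are differences without a test. TBGK had 62044 FPKM of gpd-1, 13976 of emp-7, 8027 of pgk, 4144 of ace-8, 1019 of emp-3 and 5399 of NCU00575. Their log2 differences ran from 1.22 (emp-3) to 1.67 (gpd-1). 8 of the 10 lay above all 3 WT libraries, which held for 30.9% of all genes. NCU07550 lay below all 3, at 867 FPKM (-0.50 log2). The median difference of the 10 was 1.25. Set against WT Avicel replicate 1 alone, no gene passed 2-fold and the median was 0.69. Limma over 13 libraries has to assume a spread for the single TBGK library. The share of all genes it called here is not given, so its count is left out. Conidiation markers summed to 9722 FPKM in TBGK Avicel, against 18604 to 36918 FPKM in WT Avicel. Most of each sum was eas, with 9298 FPKM in TBGK. con-6 and con-10 were also below all WT Avicel libraries. fl, at 82.5 FPKM, lay within its WT Avicel range of 58.8 to 96.7. The part of these markers in the difference was not tested.

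On cellobiose the direction was the other one. 9 of the 10 genes were lower in TBGK than in WT, against 48.3% of all genes, and 3 were at least 2-fold lower, against 15.7%. None was 2-fold higher, against 21.6%. emp-3 had 695 FPKM in TBGK and 1973 in WT, NCU07550 1676 in TBGK and 5200.4 in WT, and ace-8 3079 in TBGK and 6243 in WT. The remaining genes passed no 2-fold: gpd-1 had 40724 FPKM in TBGK and 52699.6 in WT, emp-7 14335 in TBGK and 28242 in WT, and pgk 5189 in TBGK and 9545 in WT. NCU00575 was higher, at 5975 FPKM in TBGK and 4007 in WT. Each strain had a single library on cellobiose, so these are differences without a test. Conidiation markers summed to 33153 FPKM in TBGK and 18765 FPKM in WT. Most of each sum was eas, with 29184 FPKM in TBGK and 18527 in WT. con-6 and con-10 were also higher in TBGK, while fl was lower, at 129.7 FPKM against 162.6 in WT. The part of these markers was not tested.

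On sucrose no gene passed 2-fold between the strains, against 13% of all genes, and the differences ran from -0.61 (ace-8) to 0.44 (gpi-1). 3 of the 10 lay within the WT range, as did 48.1% of all genes. Of the others, 6 lay below all 3 WT libraries and 1, emp-1, above them, and the shares of all genes there are not given here. The median difference of the 10 was -0.28 as deposited and 0.19 with equal sums, so its side depends on the scaling. TBGK had 6359.9 FPKM of ace-8, below all WT sucrose libraries, and 2592 FPKM of gpi-1, between WT replicate 1 and the others. gpd-1 stood at 35847 FPKM in TBGK. Whether the strain difference itself changed with the medium was put to interaction terms in limma over 13 libraries, where 3 of the 4 groups for cellobiose and 2 of the 4 for Avicel had 1 library and the spread came from the WT triplicates. None of the 10 was called, against 2.02% of all genes for cellobiose and 0.0571% for Avicel. At an unadjusted p under 0.05 there were 2 for cellobiose and 3 for Avicel. These terms do not show that the strain differences were alike between media.

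Within TBGK, 1 gene was at least 2-fold higher and 3 lower than on sucrose in both media, where 29.8% of all genes were higher and 21.3% lower on cellobiose, and 27.8% higher and 18.9% lower on Avicel. NCU00575 was the higher one (1.78 on cellobiose and 1.63 on Avicel). emp-3 and NCU07550 were lower in both, and the other was ace-8 on cellobiose (-1.05) and fba on Avicel (-1.29). These comparisons share the TBGK sucrose library.

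**Figure D3:**
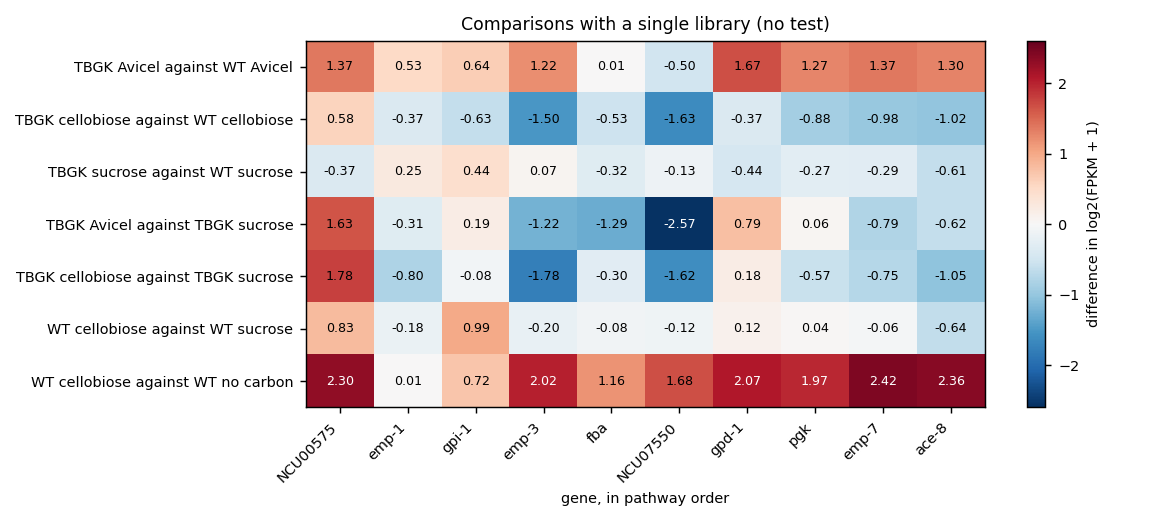
Log2 differences of the 10 glycolysis genes in the comparisons that involve a single library, as a coloured grid with the value in each cell. TBGK on Avicel lies above all 3 WT libraries for 8 of the genes, and TBGK lies below WT on cellobiose for 9, and no gene passes 2-fold between the strains on sucrose.

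Ratios between genes within a library do not depend on the scaling between libraries. NCU00575 over emp-1 was 2.27 in TBGK Avicel, 2.29, 0.894 and 0.9995 in WT Avicel, 3.54 in TBGK cellobiose, 1.84 in WT cellobiose, 0.297, 0.447 and 0.397 in WT no carbon, 0.591 in TBGK sucrose and 0.901, 0.848 and 0.986 in WT sucrose. NCU00575 thus exceeded emp-1 on cellobiose in both strains and stayed below it in every no carbon library. emp-3 over fbp-1, the gene of the gluconeogenic fructose-1,6-bisphosphatase, was 1.68 in TBGK Avicel, 1.41, 1.45 and 2.33 in WT Avicel, 1.41 in TBGK cellobiose, 9.30 in WT cellobiose, 0.447, 0.321 and 1.30 in WT no carbon, 19.9 in TBGK sucrose and 29.4, 56.6 and 74.4 in WT sucrose. The ratio was highest on sucrose and lowest without carbon, where fbp-1 exceeded emp-3 in 2 of 3 libraries, and the 3 WT groups did not overlap. ace-8 over acu-6, the gene of phosphoenolpyruvate carboxykinase, was 0.264, 2.34 and 17.3 in WT Avicel, 1.01, 0.0795 and 2.53 in WT no carbon and 77.3, 318 and 258 in WT sucrose. Every sucrose library lay above all the others, and both other groups varied widely within themselves.

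**Figure D4:**
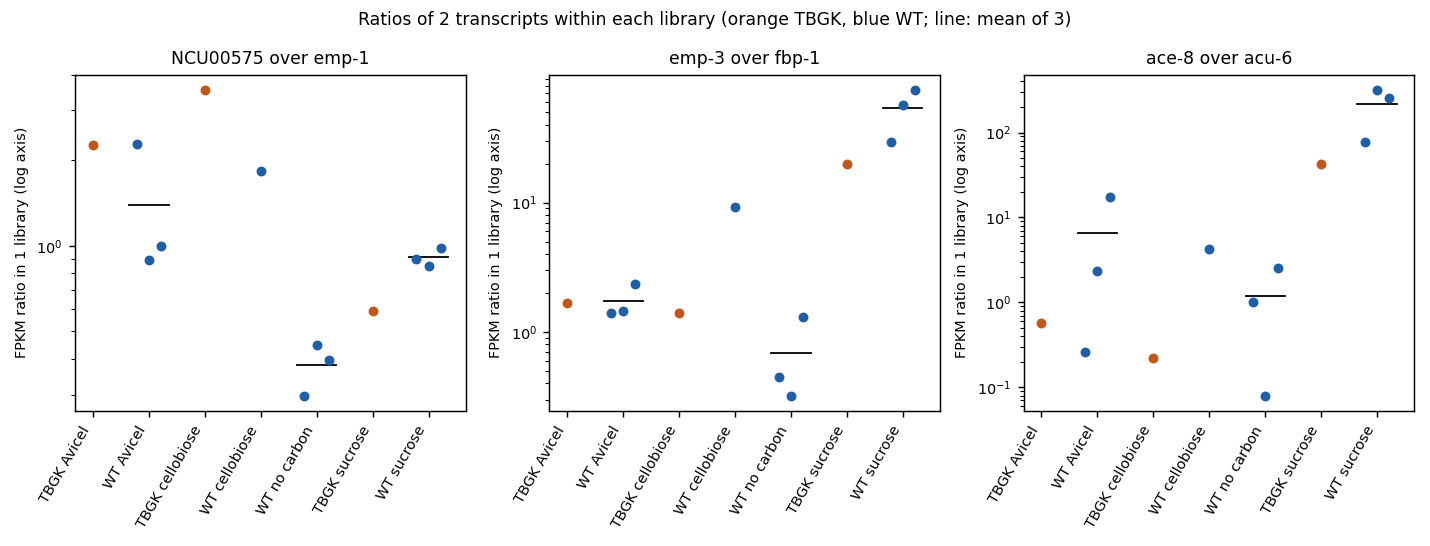
FPKM ratios between pairs of genes in every library, on a log axis, with 1 point for each library. The emp-3 over fbp-1 ratio is highest in WT sucrose and lowest in WT no carbon.

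4 of the 10 genes (emp-1, fba, emp-7 and ace-8) have 2 annotated transcripts, which differ in where they begin or end. For emp-7 the second annotated transcript starts at 5945430 and the first at 5945766 on contig supercont10.1. The second held 9.80%, 71.0% and 78.0% of the gene's FPKM in WT Avicel, 75.2%, 71.9% and 65.3% in WT no carbon and 1.75%, 76.6% and 58.6% in WT sucrose. Replicate 1 of Avicel and of sucrose, the 2 shallowest libraries, stood far below the others. For fba the second transcript held 21.7%, 66.6% and 78.1% in WT Avicel, 65.0%, 52.9% and 62.4% in WT no carbon and 19.7%, 38.5% and 42.1% in WT sucrose, with the same 2 libraries lowest in their groups. For ace-8 the second transcript held 62.4%, 83.2% and 80.3% in WT Avicel, 77.4%, 74.2% and 70.2% in WT no carbon and 32.6%, 89.7% and 89.8% in WT sucrose. In a limma test of the transcript ratio over 154 genes with 2 transcripts, which was added after the values were seen, none of the 4 was called and none had an unadjusted p under 0.05 (0%, 12.3% and 12.3% of the 154 in the 3 comparisons). Without the 2 shallowest libraries fba was called on Avicel against sucrose (log2 ratio 1.98, limma adjusted p = 0.0124) and with no carbon against sucrose (1.16, limma adjusted p = 0.0490). ace-8 was called with no carbon against sucrose (-1.62, limma adjusted p = 0.00408). That setting was chosen after seeing the data. The share of the 154 genes called in it is not given, so these calls cannot be read against it.

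**Figure D5:**
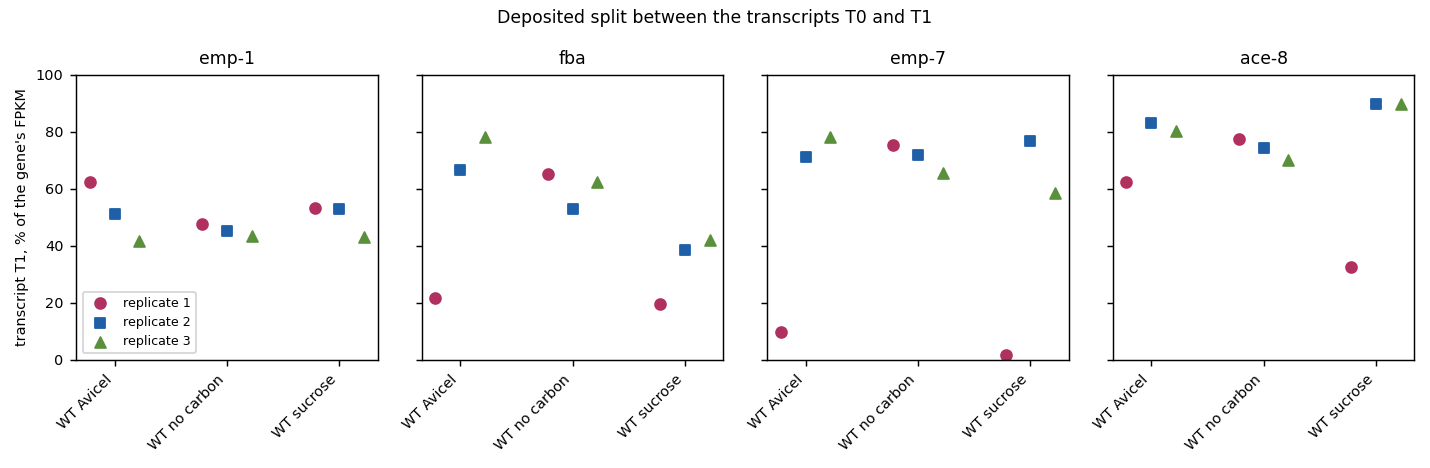
Share of each gene's FPKM assigned to its second annotated transcript, in percent, in the 9 triplicate libraries. Replicate 1 of WT Avicel and of WT sucrose lie apart from the others for fba, emp-7 and ace-8.

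Genes of neighbouring pathways, from lists set by symbol, differed in direction between lists. The shares of all genes to read them against are 24.5% fallen and 33.9% risen on Avicel, and 24.1% fallen and 40.2% risen with no carbon, both against sucrose. The 1 further Embden-Meyerhof gene, emp-6 (NCU02252), differed from sucrose by -3.28 on Avicel (limma adjusted p = 0.000516) and by -4.54 with no carbon (limma adjusted p = 7.63e-05), a fall in both. 3 of 3 pentose phosphate genes fell in both comparisons, among them ppm-2 (NCU03100, 6-phosphogluconate dehydrogenase), at -1.61 on Avicel and -1.81 with no carbon. Of 17 citric acid cycle genes, 9 fell and 1 rose on Avicel, and 6 fell and 1 rose with no carbon. tca-8 (NCU01227) was at -3.03 on Avicel and -2.96 with no carbon. Of 5 gluconeogenesis and glyoxylate cycle genes, 1 rose and 1 fell on Avicel, and 4 rose and 1 fell with no carbon, where their median was 2.12. fbp-1 rose by 2.49 on Avicel and 4.19 with no carbon, and acu-5 (NCU06836, acetyl-CoA synthetase) was at -1.96 on Avicel and -2.31 with no carbon. Of 4 reserve carbohydrate genes 2 rose and 1 fell in each, with the trehalase gene tre-1 (NCU00943) up by 4.94 on Avicel and 5.48 with no carbon. Neither of the 2 fermentation genes was called by limma, and 1 had an unadjusted p under 0.05 with no carbon.

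Between Avicel and no carbon, cit-1 (NCU01692, citrate synthase) rose by 1.14 (limma adjusted p = 0.0295) and acu-3 (NCU04230, isocitrate lyase) fell, at -2.31 (limma adjusted p = 0.00821). No gene of the pentose phosphate, fermentation or reserve carbohydrate lists was called by limma there, and none had an unadjusted p under 0.05.

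Across the 13 libraries the profile averaged over the 10 members was followed most closely by emp-7 (Pearson r = 0.990), emp-3 (0.972), pgk (0.970) and ace-8 (0.951), and least by gpi-1 (0.298) and NCU00575 (0.529). The members contribute to that average, so these values describe it and carry no test. Among genes that are no members, NCU05259 (0.974), NCU04086 (0.968) and NCU04039 (0.964) were most like it, followed by trp-2 (NCU05129, anthranilate synthase, 0.963) and NCU08390 (0.963). The libraries share strain and medium groups, and 187 of 8749 non-member genes exceeded 0.9.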

How the data were processed

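The authors deposited FPKM, and the submitters' processing notes name Cufflinks 0.9.3 and TopHat. The genome build is not given in the sources used here. The triplicate files hold FPKM for 9907 transcripts, summed here to 9733 genes, and the single-library files hold gene FPKM. The triplicate files also give, per the file headers, coverage, a signal from which depth was computed here as coverage times effective length. Symbols came from a RefSeq table of assembly NC12, which matched 8914 of 9733 identifiers. Values were log2(FPKM + 1). The filter kept 8759 genes that reached an FPKM of 1 in 3 or more of the 9 WT triplicate libraries. limma 3.58.1 in R 4.3.3 (moderated test with trend, 1 fit over 9 libraries) gave Benjamini-Hochberg adjusted p, called under 0.05. p-values measure the spread between libraries labelled biological triplicates. Where a group was a single library, folds of at least 2 were counted with no test. As an alternative, limma over 13 libraries gave adjusted p and interaction terms, assuming that single libraries vary like the triplicates. Tests were checked on simulated data. All members are named, with up to 3 genes of smallest p from each list and comparison. The members and lists were chosen with earlier results of these data known. Deviations of same-numbered libraries from their group means correlated at 0.18, 0.12 and 0.18 between Avicel and sucrose, so these numbers pair by the rule of every r over 0.1, from the data and not the labels. With no carbon the correlations ran from -0.31 to 0.45, with no pairing. The block changed no call between Avicel and sucrose.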

Additional observations from a re-analysis of the deposited data

How the results depend on the processing

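Under the alternatives tried (pseudocounts 0.1 and 10, 2 rescalings, quantile normalization, no filter, a replicate block, limma without its trend or over 13 libraries, and leaving out libraries), 522 gene results kept their direction and call, 21 lost their call, 6 gained one and 21 reversed. Of the counts, Avicel against no carbon gave 1 call, and 0 with no filter and 0 with the replicate block, which changed no other count by over 1.5 times. Leave-one-out gave 0 to 1. Quantile normalization lowered the calls to 3 for Avicel and 5 for no carbon, both against sucrose. The count of genes past 2-fold in TBGK on Avicel against WT was 3 with sums rescaled to 1000000 and 1 with quantile normalization. It was 0 against WT replicate 1 alone, a setting chosen after seeing the data. For TBGK on cellobiose it was 5 with rescaled sums. For TBGK on sucrose it was 1 with quantile normalization. Shares of all genes are not given for the 2-fold counts in this section. They are also not given for limma over 13 libraries in comparisons with a single library, so its counts there are left out. WT cellobiose against sucrose gave 2, 1 and 1 (rescaled sums, quantile, without sucrose replicate 1), and WT cellobiose against no carbon 5 with quantile normalization.

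Direction reversed for these values, none of which was called except those given with a p. On Avicel against no carbon emp-7 was -0.24 (rescaled sums), -0.59 (quantile), -0.27 and -0.15 (without Avicel replicate 1 and no carbon replicate 2) and -0.27 (shallowest 2 left out), gpd-1 was -0.17 (quantile), -0.050 (without Avicel replicate 1) and -0.050 (shallowest 2 left out), and emp-3 was 0.10 (without no carbon replicate 3). On Avicel against sucrose NCU00575 was 0.45, 0.20, 0.10 and 0.07 (rescaled sums, quantile, without Avicel replicates 2 and 3) and gpi-1 was 0.54, 0.34, 0.16, 0.44 and 0.61 (rescaled sums, quantile, without Avicel replicate 1, without sucrose replicate 1, and shallowest 2 left out, the last with limma adjusted p = 0.0126). With no carbon against sucrose emp-1 was 0.64 (rescaled sums, limma adjusted p = 0.0366) and 0.39 (quantile), and fba 0.71 (quantile). The median of the 10 reversed on Avicel against no carbon to 0.018 (median-of-ratios scaling), 0.14 and 0.13 (without Avicel or no carbon replicate 3), for TBGK sucrose to 0.19 and 0.27 (rescaled sums, quantile), and for WT cellobiose against sucrose to 0.29, 0.28 and 0.11 (rescaled sums, quantile, without sucrose replicate 1). Leave-one-out ranges were -0.27 to 0.28 (emp-7), -0.050 to 1.04 (gpd-1), -0.34 to 0.10 (emp-3) and -0.19 to 0.14 (median) on Avicel against no carbon, -0.48 to 0.10 (NCU00575) and -0.27 to 0.44 (gpi-1) on Avicel against sucrose, and -0.17 to 0.11 (median) for WT cellobiose against sucrose. Leaving out the 2 shallowest libraries was chosen after seeing the data. It raised the calls to 10 on Avicel and 9 with no carbon, both against sucrose, with gpi-1 rising in each. The share of all genes called in that setting is not given here, so these counts cannot be read against it. The median of the 10 there was -1.67 on Avicel and -1.71 with no carbon, against 0.27 and 0.35 for all genes. The cause of these changes was not tested. Depth could not be computed for the single libraries, which limits what their values show.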
